A study of Mus musculus with 6 samples.

Results

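The protease inhibitor genes of 4 families were followed in the mouse uterus on gestational day 4: the serpins, the Kazal-type Spink genes, the genes of whey acidic protein domain (WFDC) proteins together with Slpi, and the cystatins. Members were picked by a rule on the symbol, which was set with earlier results of these data known. Of the 21936 gene rows, 103 matched: 62 serpins, 12 Spink genes, 19 WFDC genes with Slpi, and 10 cystatins. RNA came from whole uteri of females 6 to 8 weeks old, taken on day 4 of pregnancy by fertile males, with the day of the vaginal plug as day 1. The labels give 3 libraries as Mettl3 d/d and 3 as Mettl3 f/f. Mettl3 encodes the catalytic subunit of the N6-methyladenosine writer of messenger RNA. In the usual notation d/d stands for the deleted and f/f for the floxed allele, but which Cre was used, which exons it removes and whether each library is 1 animal are not in the labels. Mettl3 RNA stood at 42.9, 30.1 and 46.5 FPKM in d/d replicates 1, 2 and 3 and at 30.3, 29.8 and 26.3 FPKM in the f/f replicates 1, 2 and 3 (limma adjusted p = 0.202), a whole-gene value that does not check a deletion of some exons and that shares exon bases with Tox4. The directions below therefore rest on the labels.

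Protease inhibitors of mucosal surfaces are secreted by epithelium, stroma and leukocytes and hold in check the proteases that remodel matrix, clear clots, process growth factors and kill microbes. A serpin offers a reactive loop as bait and traps the cut protease in a covalent complex. Kazal, WFDC and cystatin proteins are small folds that block an active site without being consumed: Kazal and WFDC domains mostly block serine proteases, and cystatins block cysteine proteases such as cathepsins. In the uterus around implantation such inhibitors stand against proteases of the luminal fluid and of the invading embryo. The names do not all mean a secreted inhibitor. Clade B serpins and Cstb act mostly inside cells, Serpinh1 is a collagen chaperone of the endoplasmic reticulum, and Serpinf1 has no known protease target.

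Levels are in FPKM, which divides the fragments of a gene by its length and by the total mapped in that library. Each library summed to 535043 to 625575 FPKM and had a value above 0 for 15978 to 16359 genes. The tables hold no read numbers and the depth of each library is therefore unknown. Relative to f/f replicate 1, the smallest values gave a depth of 0.936 to 1.01. The d/d libraries differed more among themselves (Spearman correlation over genes 0.951 to 0.965) than the f/f libraries did (0.984 to 0.988). Summed marker genes showed the same. Epithelial markers summed to 2301, 972 and 3810 FPKM in d/d replicates 1, 2 and 3, against 1285 to 1483 in the f/f libraries. Macrophage markers summed to 1562, 6445 and 491 FPKM in the d/d libraries, against 426 to 515 in the f/f libraries. Neutrophil markers summed to 19.7, 1092 and 28.3 FPKM in the d/d libraries, against 7.17 to 13.3 in the f/f libraries, with Elane listed at 0 in all 6 libraries. Among the d/d libraries, the epithelial sum was thus lowest and the macrophage and neutrophil sums highest in d/d replicate 2. S100a8 and S100a9 held most of the neutrophil sum there (406 and 560 FPKM). Ly6g and Mpo went against that sum and were highest in d/d replicate 3. Ly6g stood at 3.59, 5.80 and 24.96 FPKM in d/d replicates 1, 2 and 3. All other neutrophil markers on the list but Elane were highest in d/d replicate 2. In bulk tissue, fewer cells of a type and less RNA per cell cannot be told apart.

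Of the 103 members, 33 were listed at 0 in all 6 libraries, 36 had some value above 0 but did not reach 1 FPKM in at least 3 libraries, and 34 passed that filter and were tested. These 34 were 17 serpins, 4 Spink genes, 9 genes of the WFDC group and 4 cystatins. A listed 0 can be a failed estimate, because Kif11, a mitotic motor gene, was also listed at 0 in all 6 libraries. Spink12 and Spink2 were under 1 FPKM in every f/f library, and Spink1 in every d/d library, so that these 3 passed the filter through 1 genotype.

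The serpins and the WFDC genes held most of the inhibitor RNA in both genotypes. The 103 members together made up 0.595%, 0.717% and 0.557% of all FPKM in d/d replicates 1, 2 and 3, and 0.504%, 0.486% and 0.455% in the f/f replicates 1, 2 and 3. Serpins summed to 1146, 2119 and 1498 FPKM in d/d and to 1498, 1387 and 1242 FPKM in the f/f libraries. The WFDC group summed to 1520.2, 666 and 1233 FPKM in d/d and to 862, 896 and 726 FPKM in the f/f libraries. Its d/d sums lay on both sides of the f/f range. Cystatins summed to 581, 1457 and 566 FPKM in d/d and to 447, 444 and 432 FPKM in the f/f libraries, and the Spink genes to 49.4, 244 and 140 FPKM in d/d and to 39.3, 47.1 and 36.2 FPKM in the f/f libraries. Both of these families were higher by sum in every d/d library, through different members as given below.

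**Figure D1:**
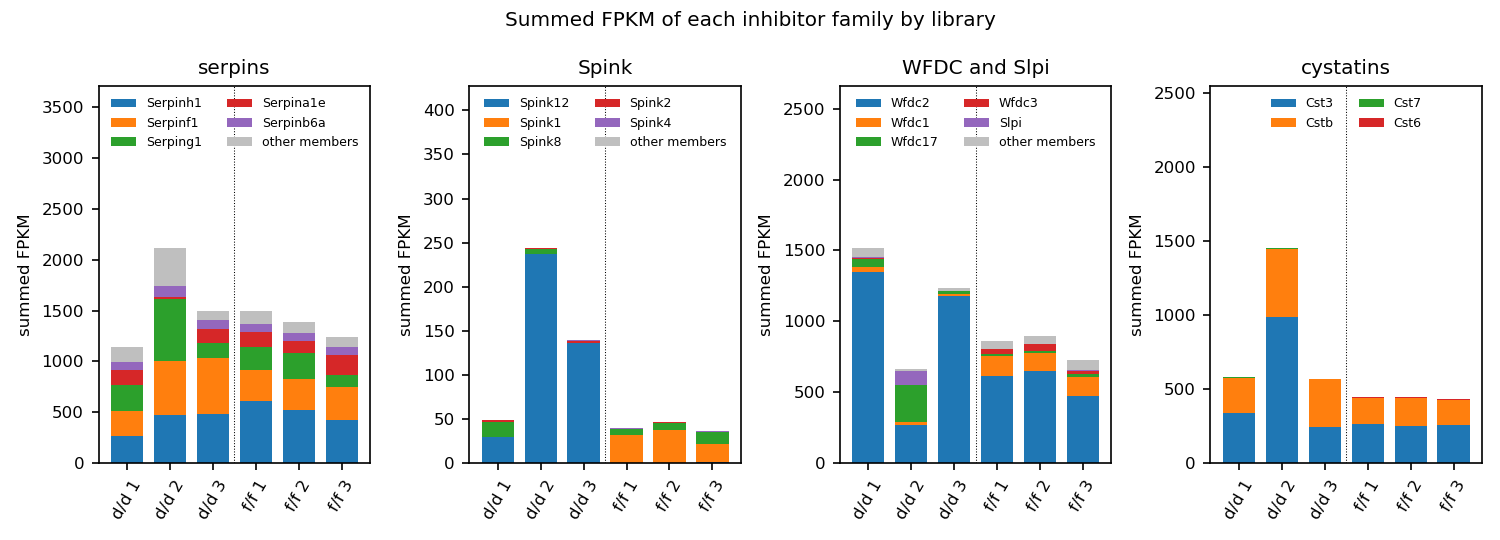
Summed FPKM of each inhibitor family (y axis) in each library (x axis, d/d then f/f replicates 1 to 3), with the 5 members of highest mean in colour and the other members in grey. Wfdc2 made up most of the WFDC sum in every library but d/d replicate 2, and the leading Spink member was Spink12 in the d/d and Spink1 in the f/f libraries.

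Over all genes, 947 of 12979 passed the test (7.30%), 453 higher (3.49%) and 494 lower (3.81%) in d/d. Among the 34 tested members, 5 passed (limma adjusted p under 0.05 over all genes): Spink12 was higher, and Spink1, Wfdc1, Wfdc3 and Wfdc13 were lower. The Spink genes had 2 of 4 and the WFDC group 3 of 9, while 0 of 17 serpins and 0 of 4 cystatins passed. Spink12, Spink2 and Spink1 entered the test through 1 genotype alone, so the Spink share cannot be set against those of the other families. Without adjustment, 2 serpins and 1 cystatin had p under 0.05, where 26.7% of all genes tested did. With limma's library weights 2 serpins passed, where 8.55% of all genes did. There was no overlap between genotypes in 10 of the 34 (5 with d/d above and 5 with d/d below), a share of 29.4% against 35.9% of all genes tested. The median size of the log2 difference, either sign, was 0.91 in these 34 and 0.30 in all genes tested. With its sign, the median log2 difference was 0.23 in the 17 serpins, 0.01 in the 4 Spink genes, -1.21 in the 9 genes of the WFDC group and 0.01 in the 4 cystatins, against 0.02 in all genes tested.

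The calls depended on which libraries were used. Left out in turn, d/d replicates 1, 2 and 3 gave 3, 3 and 2 higher members and 5, 4 and 2 lower members, where 10.2%, 10.5% and 7.74% of all genes tested passed. Without f/f replicate 1, limma called 0 members (9 had an unadjusted p under 0.05) and 0 genes in all (17.7% had an unadjusted p under 0.05). Without f/f replicate 2 or f/f replicate 3 the only member that passed was Spink1, where 0.231% and 0.855% of all genes passed.

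**Figure D2:**
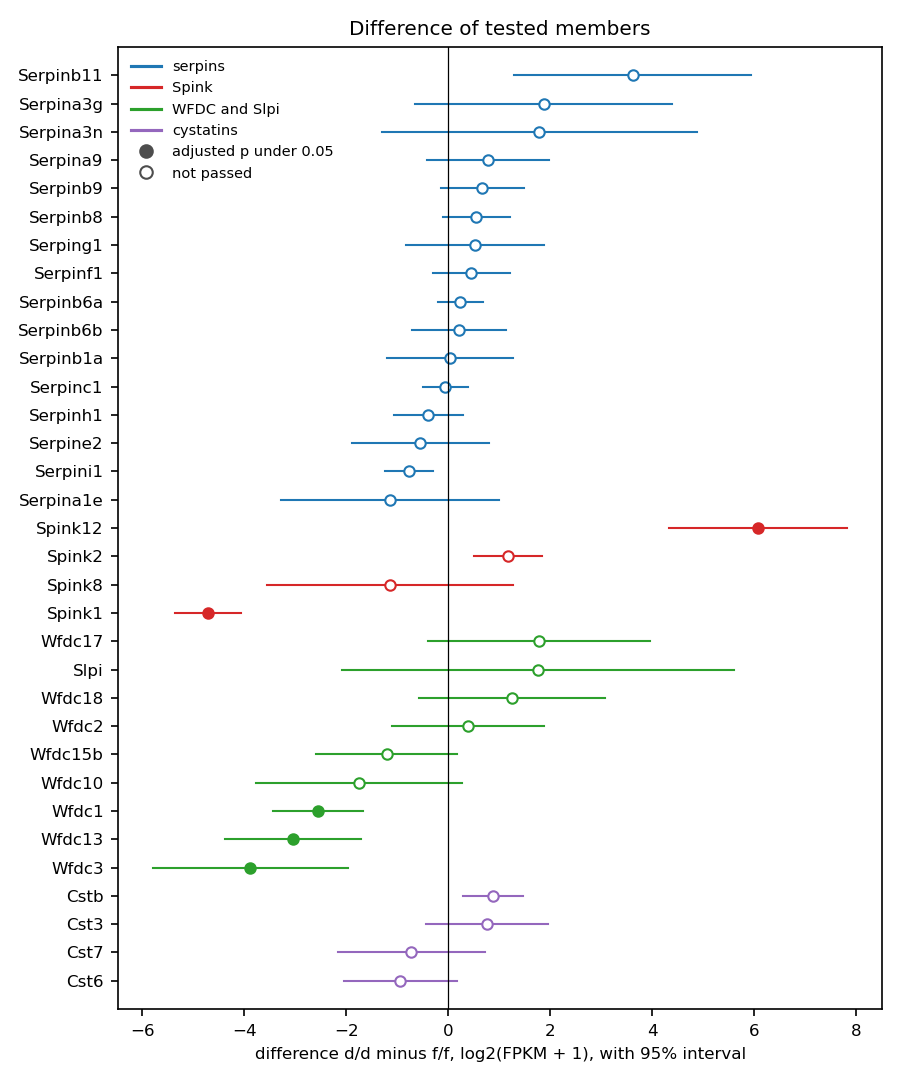
Difference of 33 tested members (d/d minus f/f, log2(FPKM + 1), x axis) with its 95% interval from limma, grouped by family; filled points passed at an adjusted p under 0.05. Spink12 stands alone on the right at 6.08, Spink1 and 3 WFDC genes stand on the left, and no serpin or cystatin is filled.

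The Spink family changed its leading member. Kazal-type proteins of this family inhibit trypsin-like proteases. Spink12 (ENSMUSG00000061144, chromosome 18, 44104407 to 44108543, plus strand, GRCm38) stood at 29.2, 237 and 137 FPKM in d/d replicates 1, 2 and 3, against 0.343, 0.425 and 0.682 FPKM in the f/f replicates 1, 2 and 3. All 3 d/d libraries lay far above all f/f libraries, and d/d replicate 1 was the lowest of the 3. The mean was 134 ± 104 FPKM in d/d and 0.483 ± 0.177 FPKM in the f/f libraries (SD, n = 3 each), a ratio of 278. The log2 difference was 6.08 (SE 0.72, 95% interval 4.33 to 7.82, limma adjusted p = 0.0130), and leaving out f/f replicate 1, 2 or 3 ended the call (adjusted p = 0.0849, 0.0840 and 0.0649) without moving the difference below 6.01.

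Spink1, the gene of the pancreatic secretory trypsin inhibitor (ENSMUSG00000024503, chromosome 18, 43728082 to 43737557, minus strand, GRCm38), went the other way. It stood at 0.455 FPKM in d/d replicate 1, with a listed 0 in d/d replicates 2 and 3, against 31.0, 36.9 and 20.7 FPKM in the f/f replicates 1, 2 and 3. Its RNA was thus near or at 0 in all 3 d/d libraries, with the lowest limma adjusted p among the members (0.00365; 0.0549 without f/f replicate 1). Chromosome 18 holds 9 of the 12 Spink members, and of these 9 the 2 that passed the filter were Spink1 and Spink12. Of the summed FPKM of the family, Spink12 made up 59.1%, 97.1% and 97.7% in d/d replicates 1, 2 and 3, and Spink1 made up 79.0%, 78.3% and 57.2% in the f/f replicates 1, 2 and 3.

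The other tested Spink genes did not pass. Spink2, known from the testis as an inhibitor needed for sperm, stood at 2.70, 1.45 and 2.12 FPKM in the d/d libraries, against 0.469 and 0.703 FPKM in the f/f replicates 1 and 2 and a listed 0 in f/f replicate 3. The genotypes did not overlap at these low levels (limma adjusted p = 0.0579, and 0.0459 without d/d replicate 2). Spink8 stood at 17.0 and 5.0 FPKM in d/d replicates 1 and 2 with a listed 0 in d/d replicate 3, against 7.08, 8.40 and 14.4 FPKM in the f/f libraries, so that its d/d values spanned the whole f/f range (adjusted p = 0.506).

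Among the WFDC genes, 3 fell and none rose. Wfdc1 encodes a secreted stromal protein first described from the prostate (ENSMUSG00000023336, chromosome 8, 119666365 to 119688222, plus strand, GRCm38). It stood at 34.5, 25.2 and 11.7 FPKM in d/d replicates 1, 2 and 3, against 139, 125 and 136 FPKM in the f/f replicates 1, 2 and 3. The 3 f/f values were close together and the highest d/d value was far below them. The means were 23.8 ± 11.5 FPKM in d/d and 133 ± 7.23 FPKM in the f/f libraries (SD, n = 3 each), 5.59-fold lower in d/d, with a log2 difference of -2.56 (SE 0.37, 95% interval -3.44 to -1.67, limma adjusted p = 0.0204). Leaving out any f/f library ended the call (adjusted p = 0.116, 0.106 and 0.0859), with differences of -2.53, -2.60 and -2.54. Stromal markers summed to 1598, 3770 and 2688 FPKM in the d/d libraries, against 2729 to 2923 in the f/f libraries. Of the 8, 2 passed, both lower (Hoxa10 and Hand2). Vim, Pdgfra and Col3a1 had negative log2 differences (-1.27, -1.445 and -0.24) and did not pass. Lum, Dcn and Col1a1 had positive ones (0.98, 0.62 and 0.15) and did not pass either. The part of stroma in the level of Wfdc1 was not tested.

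Wfdc3 (ENSMUSG00000076434, chromosome 2, 164731180 to 164745931, minus strand, GRCm38) stood at 7.37, 0.0417 and 0.397 FPKM in d/d replicates 1, 2 and 3, against 31.3, 47.9 and 23.7 FPKM in the f/f replicates 1, 2 and 3. It was low in all 3 d/d libraries, least so in d/d replicate 1. The means were 2.60 ± 4.13 FPKM in d/d and 34.3 ± 12.4 FPKM in the f/f libraries (SD), 13.2-fold lower in d/d, with a log2 difference of -3.88 (SE 0.79, limma adjusted p = 0.0402, n = 3 each). The adjusted p was 0.0531 and 0.0773 without d/d replicate 2 or 3, and 0.156, 0.163 and 0.121 without f/f replicate 1, 2 or 3, which ended the call.

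Wfdc13 (ENSMUSG00000067704, chromosome 2, 164685107 to 164687706, plus strand, GRCm38) stood at 1.81 FPKM in d/d replicate 1 with a listed 0 in d/d replicates 2 and 3, against 15.5, 14.2 and 5.27 FPKM in the f/f replicates 1, 2 and 3. The genotypes did not overlap (limma adjusted p = 0.0310; 0.0599 without d/d replicate 3, and 0.141, 0.138 and 0.0660 without f/f replicates 1, 2 and 3). No exon of these 5 genes that passed overlaps an exon of another gene in the annotation used.

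The WFDC genes lie mostly in a cluster on chromosome 2, which holds 15 of the 19 and 6 of the 9 tested. Along the chromosome the tested genes of this cluster are Wfdc15b, Slpi, Wfdc2, Wfdc10, Wfdc13 and Wfdc3. Wfdc10, next to Wfdc13 among the tested genes, stood at 27.2, 2.30 and 2.40 FPKM in d/d replicates 1, 2 and 3, against 20.7, 18.6 and 27.5 FPKM in the f/f replicates 1, 2 and 3. It was within the f/f range in d/d replicate 1 and far below it in the other d/d libraries, and did not pass (limma adjusted p = 0.242), while without d/d replicate 1 the log2 difference was -2.78 (adjusted p = 0.00596). Wfdc15b stood at 19.7, 7.35 and 3.85 FPKM in d/d and at 12.9, 21.8 and 31.3 FPKM in the f/f libraries, again with d/d replicate 1 inside the f/f range (adjusted p = 0.240). Summed gland markers, mostly Sox17, were 343, 53.0 and 114 FPKM in d/d replicates 1, 2 and 3, against 243 to 321 in the f/f libraries, and 0 of 4 tested gland markers passed. The sum was thus also low in d/d replicates 2 and 3 and not in d/d replicate 1, while the gland markers Prss28 and Prss29 were at or near 0 throughout. Lif, a gland cytokine on the same list, went against the sum, at 2.45, 4.95 and 30.1 FPKM in d/d and at 4.67, 6.20 and 1.36 FPKM in the f/f libraries. The part of gland RNA in these values was not tested.

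Wfdc2, also called HE4, a secreted product of uterine and other reproductive epithelia (ENSMUSG00000017723, chromosome 2, 164562413 to 164568510, plus strand, GRCm38), had the highest mean FPKM of all members over the 6 libraries. It stood at 1350, 267 and 1182 FPKM in d/d replicates 1, 2 and 3, against 614, 649 and 474 FPKM in the f/f replicates 1, 2 and 3. It exceeded every f/f library in d/d replicates 1 and 3 and was under all of them in d/d replicate 2 (limma adjusted p = 0.723). Without d/d replicate 2 the log2 difference was 1.14 (adjusted p = 0.0307). By their sum, epithelial markers were likewise over the f/f libraries in d/d replicates 1 and 3 and under them in d/d replicate 2, and 3 of 12 passed, all higher, with Krt7 and Epcam among them. Their part in the level of Wfdc2 was not tested. Wfdc18, known from the mammary gland, stood at 19.4, 2.61 and 14.7 FPKM in d/d and at 7.70, 1.55 and 2.92 FPKM in the f/f libraries, with the same 2 d/d libraries high (adjusted p = 0.338).

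Other WFDC genes were highest in d/d replicate 2. Wfdc17, known from activated macrophages, stood at 54.4, 258 and 16.7 FPKM in d/d replicates 1, 2 and 3, against 18.4, 16.0 and 17.9 FPKM in the f/f replicates 1, 2 and 3. Slpi, the secretory leukocyte protease inhibitor that blocks neutrophil elastase and cathepsin G, stood at 4.53, 97.2 and 0.188 FPKM in d/d and at 1.30, 0.174 and 5.19 FPKM in the f/f libraries. Neither passed (limma adjusted p = 0.264 and 0.523). Slpi was above the f/f range in d/d replicate 2 alone, and d/d replicate 3 was at the level of the lowest f/f library. Wfdc17 followed the order of the summed macrophage markers given above, and Slpi was highest in the library with the highest neutrophil sum. The part of leukocytes in these values was not tested.

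**Figure D3:**
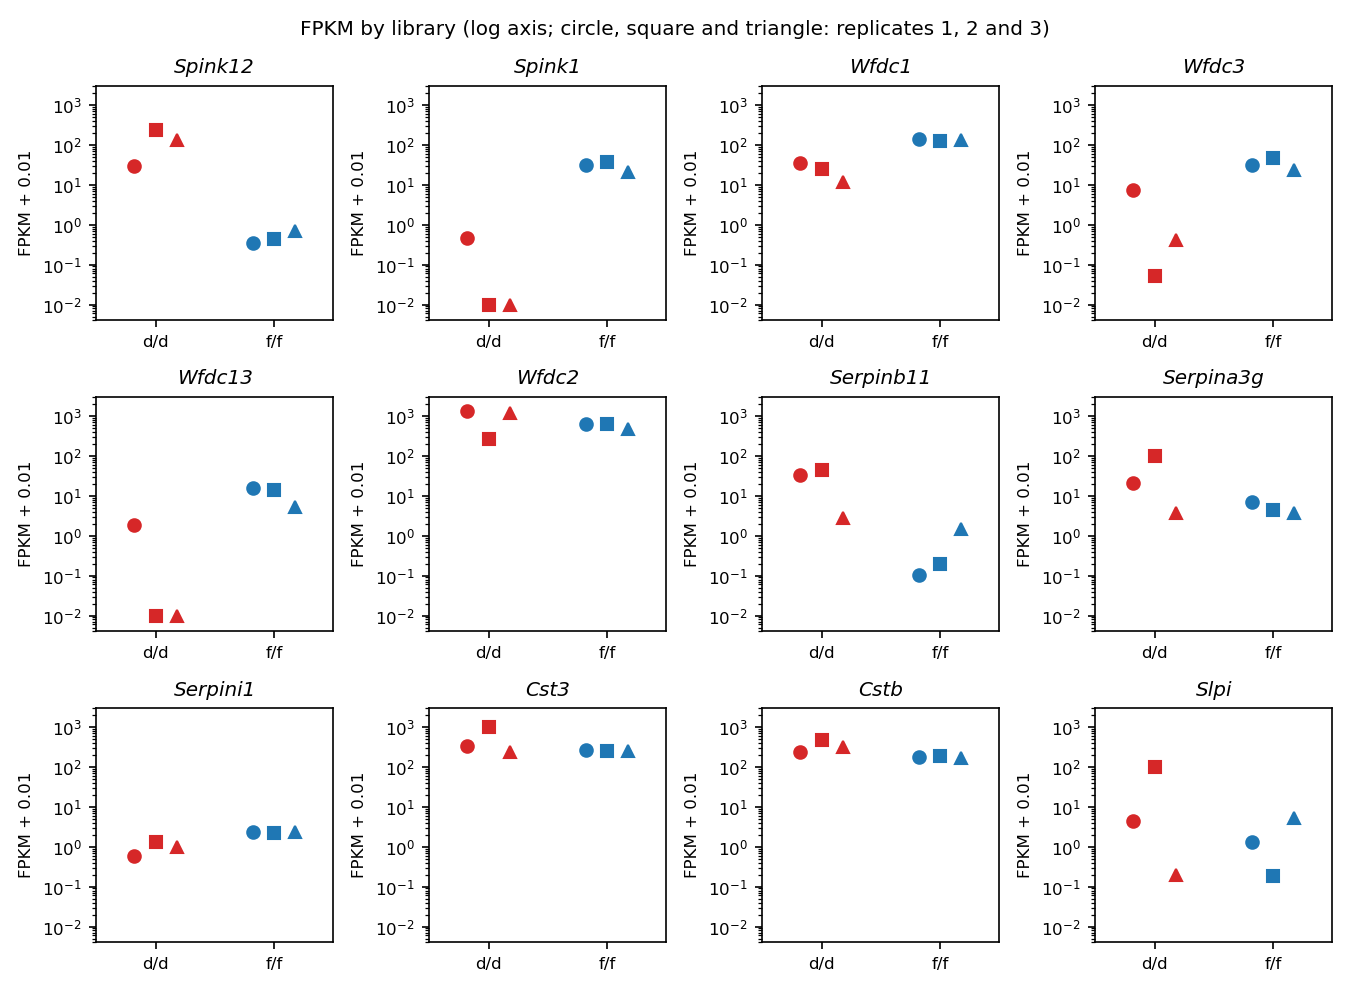
FPKM + 0.01 on a log axis for 12 members, by genotype (d/d left in red, f/f right in blue), with the replicates as circle, square and triangle; a point at 0.01 is a listed 0. The genotypes separate for Spink12, Spink1, Wfdc1, Wfdc3, Wfdc13, Serpinb11, Serpini1 and Cstb, and overlap for Wfdc2, Serpina3g, Cst3 and Slpi.

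None of the 17 tested serpins passed, and several of them differed widely between the d/d libraries. The serpins of highest mean level were those of matrix and plasma cascades. Serpinh1, also known as HSP47, stood at 263, 470 and 482 FPKM in d/d replicates 1, 2 and 3, against 611, 524 and 423 FPKM in the f/f replicates 1, 2 and 3 (log2 difference -0.39, 95% interval -1.08 to 0.29, limma adjusted p = 0.414). Serpinf1, the gene of pigment epithelium-derived factor, stood at 253, 534 and 555 FPKM in d/d and at 301, 303 and 321 FPKM in the f/f libraries (0.45, -0.31 to 1.21, adjusted p = 0.405). Without d/d replicate 1, which was under the f/f range while the others were over it, the difference was 0.82 (adjusted p = 0.0211). Serping1, the complement C1 inhibitor, stood at 254, 611 and 141 FPKM in d/d and at 229, 258 and 126 FPKM in the f/f libraries, high in d/d replicate 2 alone (adjusted p = 0.597).

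Neither Serpine2 nor Serpini1 passed. Serpine2, also called protease nexin 1, an inhibitor of thrombin, stood at 42.5, 78.6 and 14.9 FPKM in d/d and at 63.9, 48.1 and 53.0 FPKM in the f/f libraries, with d/d on both sides of f/f (limma adjusted p = 0.571). Serpini1, or neuroserpin, an inhibitor of tissue plasminogen activator, stood at 0.585, 1.32 and 0.984 FPKM in d/d and at 2.32, 2.26 and 2.31 FPKM in the f/f libraries. Its genotypes did not overlap, with f/f libraries nearly equal (log2 difference -0.77, 95% interval -1.24 to -0.30, limma adjusted p = 0.0687), and it passed without d/d replicate 2 (adjusted p = 0.0415).

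Clade B serpins, which act mostly inside cells, included the largest serpin difference. Serpinb11 (ENSMUSG00000026327, chromosome 1, 107361198 to 107380475, plus strand, GRCm38) stood at 33.9, 44.0 and 2.74 FPKM in d/d replicates 1, 2 and 3, against 0.0914, 0.181 and 1.48 FPKM in the f/f replicates 1, 2 and 3. The genotypes did not overlap, but the lowest d/d library, replicate 3, was close to the highest f/f library. The log2 difference of 3.61 did not pass (95% interval 1.28 to 5.94, limma adjusted p = 0.0754), and without d/d replicate 3 it was 4.75 (adjusted p = 0.0135). Serpinb8 also did not overlap, at 7.31, 5.41 and 7.14 FPKM in d/d and at 5.35, 2.51 and 5.23 FPKM in the f/f libraries, where the lowest d/d and highest f/f values nearly met (adjusted p = 0.260).

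Other clade B serpins were measured at moderate levels. Serpinb6a stood at 74.8, 116 and 87.2 FPKM in d/d and at 76.1, 83.0 and 73.1 FPKM in the f/f libraries (limma adjusted p = 0.450). It shares exon bases with Nqo2 and Ripk1 on the other strand. Serpinb9, an inhibitor of granzyme B, stood at 21.9, 21.2 and 10.1 FPKM in d/d and at 12.3, 11.7 and 7.39 FPKM in the f/f libraries (adjusted p = 0.265), so that d/d replicates 1 and 2 were above f/f and d/d replicate 3 was within it. Serpinb1a, an inhibitor of neutrophil elastase, was instead highest in d/d replicate 3, at 6.87, 16.2 and 34.0 FPKM in d/d and at 18.3, 14.4 and 13.9 FPKM in the f/f libraries (adjusted p = 0.9747). Serpina9, Serpinb6b and Serpinc1 (antithrombin, whose exons overlap those of Zbtb37 on the other strand) had overlapping genotypes at 0.677 to 15.2 FPKM in d/d and 0.135 to 9.0 FPKM in the f/f libraries (adjusted p = 0.364, 0.753 and 0.855).

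Of the clade A serpins of chromosome 12, Serpina3g and Serpina3n were highest and Serpina1e was lowest in d/d replicate 2. Serpina3g, which in mouse inhibits lysosomal cathepsins in leukocytes, stood at 20.98, 99.4 and 3.64 FPKM in d/d replicates 1, 2 and 3, against 7.17, 4.36 and 3.77 FPKM in the f/f replicates 1, 2 and 3. Serpina3n, an acute-phase inhibitor, stood at 1.67, 63.6 and 1.68 FPKM in d/d and at 1.05, 2.93 and 0.398 FPKM in the f/f libraries. Neither passed (limma adjusted p = 0.303 and 0.415), and d/d replicate 3 was not above the f/f range for either. Serpina1e, an alpha-1 antitrypsin gene, stood at 147, 14.2 and 139 FPKM in d/d and at 151, 115 and 194 FPKM in the f/f libraries, low in d/d replicate 2 alone (adjusted p = 0.450). Serpina1a to Serpina1e are near-identical copies, and the Serpina3 genes are related copies whose likeness was not measured here. Which copy received the fragments is therefore uncertain.

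The upstream windows of the 2 Serpina3 genes that were both highest in d/d replicate 2 are shown because they share a stretch. These sequences, taken from RefSeq (GRCm38.p6), are the 250 bases before its start of each gene on the plus strand, at chr12:104235897-104236146 (Serpina3g) and chr12:104406458-104406707 (Serpina3n), where no exon is annotated in GENCODE. The GENCODE starts of the genes lie 99 bases (Serpina3g) and 22 bases (Serpina3n) past the end of the window, and the bases just after the RefSeq start were not found in the GENCODE transcripts of either gene, so that the start is uncertain. Capitals mark TTCNNNGAA, the palindrome that STAT factors can bind, in Serpina3g, and AGAACA, a hexamer of progesterone and glucocorticoid receptor elements, in Serpina3n.
Serpina3g: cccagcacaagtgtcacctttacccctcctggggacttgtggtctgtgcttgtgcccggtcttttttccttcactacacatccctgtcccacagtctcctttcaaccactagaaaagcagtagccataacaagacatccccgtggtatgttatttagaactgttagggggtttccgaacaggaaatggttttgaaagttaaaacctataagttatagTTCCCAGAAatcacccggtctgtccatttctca
Serpina3n: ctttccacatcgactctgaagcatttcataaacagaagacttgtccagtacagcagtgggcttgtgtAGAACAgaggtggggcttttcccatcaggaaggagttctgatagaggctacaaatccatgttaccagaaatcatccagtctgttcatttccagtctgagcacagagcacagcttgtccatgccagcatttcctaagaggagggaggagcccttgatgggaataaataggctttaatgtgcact

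The best local alignment of these windows spanned 31 bases without gaps, of which 27 were identical (87.1%), at 4 to 34 bases before the RefSeq start in Serpina3g and 94 to 124 bases before it in Serpina3n. Counted from the GENCODE starts, the stretches lie 102 to 132 bases upstream in Serpina3g and 115 to 145 bases upstream in Serpina3n. Capitals mark identical bases.
Serpina3g, aligned stretch: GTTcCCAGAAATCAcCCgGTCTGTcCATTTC
Serpina3n, aligned stretch: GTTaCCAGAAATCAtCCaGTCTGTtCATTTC
The TTCNNNGAA match of Serpina3g lies in this stretch, and the corresponding bases of Serpina3n do not match it. On either strand, TTCNNNGAA occurred in 7.02% of 32851 promoter windows of this length and in those of 2 of the 23 tested members searched, and AGAACA in 16.1% of windows and in those of 4 of 23 members. TATAAA was found in 12.4% of windows and in 1 of 23 members, and the palindromic estrogen response element in 0.064% of windows and in 0 of 23. Of the members that passed, only Wfdc3 was among those searched. A member with several windows was counted once if any of them matched. None of these motifs contains another, and such letter matches describe the windows only.

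Cystatins, which inhibit cysteine cathepsins, did not pass. Cst3, the gene of cystatin C, stood at 336, 986 and 244 FPKM in d/d replicates 1, 2 and 3, against 262, 249 and 255 FPKM in the f/f replicates 1, 2 and 3. It was highest in d/d replicate 2, and d/d replicate 3 was just under the f/f range (limma adjusted p = 0.375). Cstb, the gene of the intracellular cystatin B (ENSMUSG00000005054, chromosome 10, 78425669 to 78427622, plus strand, GRCm38), was above f/f in every d/d library, at 240, 464 and 322 FPKM in d/d and at 176, 188 and 171 FPKM in the f/f libraries. Its mean of 342 ± 113 FPKM in d/d was 1.92 times the 179 ± 8.97 FPKM of f/f libraries (SD, n = 3 each; log2 difference 0.88, 95% interval 0.29 to 1.47, adjusted p = 0.0804). It passed without d/d replicate 1 (adjusted p = 0.0311).

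The cystatins of low level were lowest in d/d replicate 3. Cst7, or cystatin F of leukocytes, stood at 1.95, 5.83 and 0.240 FPKM in d/d and at 4.87, 3.05 and 3.80 FPKM in the f/f libraries (limma adjusted p = 0.476). Cst6, cystatin M/E of epithelia, stood at 2.10 and 1.69 FPKM in d/d replicates 1 and 2 with a listed 0 in d/d replicate 3, against 3.68, 3.19 and 2.02 FPKM in the f/f libraries (adjusted p = 0.249).

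The d/d libraries differed from one another in these genes more than the f/f libraries did, as they did over all genes. The median SD over the 34 tested members on the log2(FPKM + 1) scale was 1.05 within d/d and 0.32 within f/f, against 0.30 and 0.13 over all genes tested. The d/d spread was the larger in 31 of the 34 (91.2%) and in 82.7% of all genes tested. A range over 2 on that scale was seen within d/d in 18 of the 34 members (52.9%) and in 6.83% of all genes tested, and within f/f in 1 member, Slpi, and in 0.316% of genes. Of these 18 members, 10 had their highest value in d/d replicate 2, another 7 peaked in d/d replicate 1, and the other was highest in d/d replicate 3 (Serpinb1a). In percent, 38.9%, 55.6% and 5.56% of the members were highest in d/d replicates 1, 2 and 3, beside 21.2%, 56.0% and 22.8% of all genes with so wide a range. The 10 were Cst3, Cst7, Serpina3g, Serpina3n, Serpinb11, Serpine2, Serping1, Slpi, Spink12 and Wfdc17, and the 7 were Serpina1e, Spink8, Wfdc2, Wfdc3, Wfdc10, Wfdc15b and Wfdc18.

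**Figure D4:**
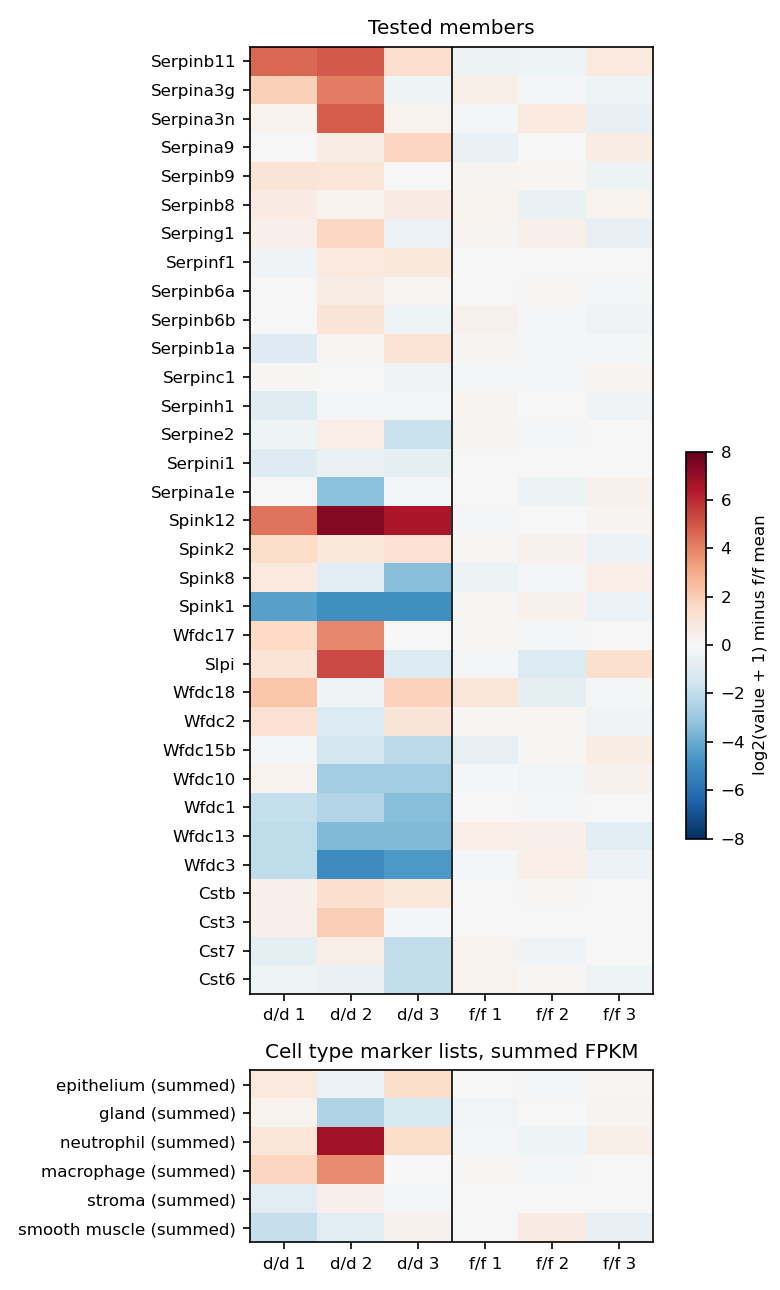
The same 33 tested members (upper panel) and the summed markers of 6 cell types (lower panel) by library, as log2(value + 1) minus the mean of the f/f libraries; red is higher and blue lower than that mean. In d/d replicate 2, Slpi, Serpina3n, Serpina3g and Wfdc17 are red as are the neutrophil and macrophage sums, and Wfdc2 and Serpina1e are blue as is the gland sum. The epithelial sum there is only slightly under the f/f libraries (972 FPKM against 1285 to 1483), a small step on this colour scale.

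Serine proteases were read from a list drawn up for serpin, Spink, WFDC or Kunitz proteins, and cysteine proteases from a list for cystatins. Whether each listed gene is a target of a member was not checked. The serine list also holds F3, the gene of tissue factor, a receptor rather than a protease, which is counted with the serine proteases here. Beside 3.49% higher and 3.81% lower among all genes tested, 1 of 26 tested serine proteases was higher and 0 were lower. This was Prss23, a secreted serine protease of the ovary and uterus, at 159, 200 and 335 FPKM in d/d replicates 1, 2 and 3, against 51.2, 70.0 and 44.5 FPKM in the f/f replicates 1, 2 and 3 (limma adjusted p = 0.0234). Next by p, the granzyme genes Gzmf and Gzmb had negative and the membrane protease genes Hpn and St14 positive log2 differences that did not pass (-1.69, -3.04, 1.19 and 1.82, with adjusted p = 0.0501, 0.0532, 0.0596 and 0.0879). St14, the gene of matriptase, was above f/f in every d/d library, at 131, 44.7 and 204 FPKM in d/d and at 27.5, 30.9 and 30.2 FPKM in the f/f libraries. Natural killer cell markers summed to 9.12, 9.35 and 1.07 FPKM in the d/d libraries, against 30.2, 20.0 and 9.82 in the f/f libraries, with 1 of 4 passing, lower (Prf1), and their part in the granzyme values was not tested. Leaving out f/f replicate 1, 2 or 3 brought the limma count of serine proteases to 0 each time. Of all genes tested, 0%, 0.231% and 0.855% then passed. Leaving out d/d replicate 1, 2 or 3 brought the count to 3, 5 and 3, where 10.2%, 10.5% and 7.74% of all genes passed.

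Of 11 tested cysteine proteases, 2 were higher and 0 lower, beside 3.49% higher and 3.81% lower among all genes tested. Ctsh stood at 243, 410 and 220 FPKM in d/d and at 86.3, 78.9 and 104 FPKM in the f/f libraries, and Ctsb at 665, 919 and 599 FPKM in d/d and at 362, 412 and 349 FPKM in the f/f libraries (limma adjusted p = 0.0244 and 0.0435). Both encode lysosomal cathepsins and were highest in d/d replicate 2. Ctsc, Ctsl and Lgmn had positive log2 differences (1.92, 1.57 and 1.16) with limma adjusted p-values of 0.0882, 0.121 and 0.187, none of which passed. The summed FPKM of the list was 1911, 4538 and 1682 in d/d and 984, 1012 and 917 in the f/f libraries. The same order among d/d libraries was seen for the summed macrophage markers, of which Cd68 passed, higher, and 6 others did not; their part was not tested. Leaving out f/f replicate 1, 2 or 3 brought the limma count of cysteine proteases to 0, and leaving out d/d replicate 2 brought it to 5. Without d/d replicate 2, 10.5% of all genes passed.

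Inhibitors outside the 4 name families were lower where they passed. Their median log2 difference was -0.63, against 0.32 in the serine proteases and 1.16 in the cysteine proteases. Of 17 tested, 0 were higher and 4 were lower, beside 3.49% higher and 3.81% lower among all genes tested. The 4 were Reck, a membrane-anchored inhibitor of metalloproteases, Pi16, Itih5 and Eppin, which carries both a WFDC and a Kunitz domain. Reck stood at 4.81, 5.11 and 3.47 FPKM in d/d and at 14.5, 13.3 and 13.3 FPKM in the f/f libraries (limma adjusted p = 0.0118). Eppin stood at 0.725 and 0.111 FPKM in d/d replicates 1 and 3 with a listed 0 in d/d replicate 2, against 4.66, 5.65 and 3.29 FPKM in the f/f libraries (adjusted p = 0.0177). The next by p, Spock2, a proteoglycan with a Kazal-like domain, stood at 27.5, 9.18 and 4.77 FPKM in d/d and at 49.3, 62.6 and 50.1 FPKM in the f/f libraries and did not pass (adjusted p = 0.0666). Pi16 and Itih5 had log2 differences of -1.53 and -1.68 (adjusted p = 0.0228 and 0.0352). Leaving out f/f replicate 1, 2 or 3 ended all 4 calls. Leaving out d/d replicate 2 or 3 gave 8 and 6, where 10.5% and 7.74% of all genes passed. Among 12 receptors and partners of serpins and proteases, 0 were higher and 1 was lower, Vtn, the gene of the adhesive glycoprotein vitronectin, at 1.49, 2.71 and 1.52 FPKM in d/d and at 4.36, 5.61 and 5.82 FPKM in the f/f libraries (adjusted p = 0.0371). Leaving out f/f replicate 1, 2 or 3 brought the count to 0, and leaving out d/d replicate 2 brought it to 3. Of all genes, 7.30% passed with all libraries and 10.5% without d/d replicate 2.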

How the data were processed

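RNA-seq of whole uterus was available as 1 table per library (6 libraries). The deposited values were read as FPKM, since they are decimal, have unequal totals and Cufflinks is listed among the tools. Cufflinks 2.2.1 and HISAT2 2.2.1 are named, per the submitters' processing notes, as are the builds mm9 and mm10; no source used here gives the annotation, the options or the use of strand. TRIzol and a TruSeq RNA kit were used, per the labels' protocols. Cufflinks divides fragments among near-identical genes.

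Of rows sharing a symbol the one with the highest mean was kept, removing 36. Genes with at least 1 FPKM in at least 3 libraries entered the test. The scale was log2(FPKM + 1) and the tool limma 3.58.1, under R 4.3.3 (genotype, intensity trend, two-sided), with Benjamini-Hochberg adjustment over all genes and 0.05 as the threshold. Log2 differences are d/d minus f/f and understate the change of low genes; folds are ratios of mean FPKM, and none is given for genes with a listed 0. The test was checked on simulated data drawn with the same spread in all genes and in both genotypes. That check does not cover the larger spread within d/d seen here. Exact permutation over 3 against 3 libraries cannot give p below 0.1. The labels do not say that replicates are separate animals, so a p-value speaks only of the spread among these 6 libraries, which may be technical. The number of libraries and the unknown depth limit the precision, and no counting interval was given.

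Positions are from GENCODE M21 (GRCm38), joined by gene ID. Members and lists were chosen with earlier results of these data known. Members were named when their mean reached 5 FPKM in 1 genotype, when they passed, or when the genotypes did not overlap; Cst6, Cst7, Serpina9 and Serpinc1, tested but below that level, were named after their values were seen. From each list up to 5 genes were named in order of p, and further markers after their values were seen. Counts within marker lists stand beside the 7.30% of all genes tested that passed. The closing section gives the alternatives tried. Values of 1 tested member and of 1 cell type marker are not reported here by name.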

Additional observations from a re-analysis of the deposited data

How the results depend on the processing

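With all libraries 1 member was higher and 4 were lower. The log2 difference of every member that passed kept its direction under all 14 alternatives. Under quantile normalization, library weights and no intensity trend, 2 members were higher (Spink2, Serpinb11 and Spink2 besides Spink12), and with library weights 2 serpins and with no intensity trend 1 serpin passed. Of 12979 genes tested, 1065, 1110 and 966 passed under these settings, beside 947 under the main one. With a pseudocount of 0.1 or no filter on low values, 2 members were lower and 1 WFDC gene passed instead of 3, because Wfdc3 and Wfdc13 were lost (adjusted p = 0.0713 and 0.0556, and 0.0652 and 0.0517). Over all genes, 870 of 12979 passed with that pseudocount and 683 of 17739 without the filter. The stricter filter and median-of-ratios scaling gave the same 5 members, where 782 of 10352 and 966 of 12979 genes passed. Median-of-ratios or quantile scaling moved the median of all genes by under 0.1 on the log2 scale. With 1 library left out, the range was 0 to 3 for members higher, 0 to 5 for members lower, 0 to 1 for serpins, 0 to 3 for Spink genes, 0 to 4 for the WFDC group, 0 to 1 for cystatins and 0 to 1367 for all genes. The cause of these shifts was not tested. The same-numbered libraries of the genotypes did not deviate together (r = -0.0202, 0.0203 and -0.0207), so the numbers are not taken as pairs; with the replicate block 1 member was lower (Spink1), 0 of the WFDC group passed and 100 genes passed in all. The shares of summed FPKM moved by less than 1 SD when rows sharing a symbol were summed. Levels under 1 FPKM, and listed zeros, are the least certain, since the depth behind them is unknown.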

Other observations

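The 36 members with some value above 0 that did not reach the filter were 24 serpins, 8 WFDC genes and 4 Spink genes, and 27 of them were under 1 FPKM in every library. They were not tested, and their values are given only as a description, chosen after they were seen. The neighbours of Serpinb11 on chromosome 1 included Serpinb7, which stood at 3.14, 2.97 and 0.0729 FPKM in d/d replicates 1, 2 and 3, against a listed 0 in f/f replicates 1 and 2 and 0.0339 FPKM in f/f replicate 3. As for Serpinb11, d/d replicate 3 was the lowest d/d library and near the f/f level. Serpinb5, the gene of maspin, in the same cluster, was instead highest in d/d replicate 3, at 0.767, 1.66 and 4.06 FPKM in d/d and at 0.254, 0.256 and 0.252 FPKM in the f/f libraries. Serpinb2, plasminogen activator inhibitor 2, stood at 1.52 and 0.115 FPKM in d/d replicates 2 and 3 with a listed 0 in the other 4 libraries. Serpinb12, in the same cluster, went the other way without overlap. It stood at 0.366 and 0.0415 FPKM in d/d replicates 1 and 2 with a listed 0 in d/d replicate 3. The f/f replicates 1, 2 and 3 were at 0.835, 0.741 and 0.484 FPKM.

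Further Serpina3 genes of chromosome 12 were highest in d/d replicate 2 as Serpina3g and Serpina3n were. Serpina3f stood at 1.98, 6.66 and 0.0667 FPKM in d/d and at 0.686, 0.139 and 0.402 FPKM in the f/f libraries. Serpina3i stood at 0.119 and 2.05 FPKM in d/d replicates 1 and 2 with a listed 0 in d/d replicate 3, against 0.0573, 0.116 and 0.0285 FPKM in the f/f libraries. Wfdc21, a secreted myeloid product in mouse, was listed at 0 in every library but d/d replicate 2, where it stood at 5.75 FPKM. Serpina1b ran the other way, at 0.0973, 0.249 and 0.104 FPKM in d/d and at 3.06, 2.98 and 0.962 FPKM in the f/f libraries. These genes have close copies, so the division of fragments among them is uncertain.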
